A study of Mus musculus with 10 samples.

Results

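Granulocytes, the white blood cells of which neutrophils are the most common kind, were examined in the single-cell libraries of the inner ear of old mice. Cells were chosen by their own transcript counts. A cell was a member where S100a8 and S100a9 each had at least 2 unique molecular identifiers (UMIs, each standing for 1 captured transcript), where at least 1 of Ly6g, Itgam, Retnlg, Csf3r, Camp and Ngp had a UMI, and where fewer than 3 of the macrophage genes C1qa, C1qb, C1qc, Cx3cr1 and Csf1r had a UMI. Of 17696 kept cells in 8 libraries, 480 (2.71%) were members, 144 of 7272 in the cochlea and 336 of 10424 in the vestibule. Kept cells were those with 200 or more genes, 1000 or more UMIs and a mitochondrial share under 25%.

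The cochlea group and the vestibule group both came from wild-type CBA/J mice of 22 months, an inbred strain, bred and aged with no agent named in the labels, and the study used mice of both sexes. Whole organs of 7 to 8 mice were pooled for each library and dissociated with collagenase IV, so single animals cannot be separated and a library is the replicate. The transcripts were captured by their 3' ends, so a UMI count does not rise with transcript length. Young mice were not analysed here, and no value below is a change with age. The deposited barcodes of a library summed to between 2738036 and 26974948 UMIs in the 8 libraries used. Of 5 libraries per organ, replicate 2 repeated replicate 1: cochlea replicate 2 shared each of its 1313 barcodes with replicate 1, vestibule replicate 2 shared 1633 of 1641, and the pairs had counts that differed by less than the sampling noise. They were counted as 1 sample, so that n = 4 per organ. Other pairs of libraries shared at most 41 barcodes and 0 members.

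Neutrophils are made in the bone marrow and live for a short time in blood and tissue. While they mature they fill their granules in order: primary granules hold elastase and myeloperoxidase, secondary granules hold lactoferrin and cathelicidin, and tertiary granules hold gelatinase. S100a8 and S100a9 encode the subunits of calprotectin, which binds calcium, zinc and manganese and makes up much of the neutrophil cytosol.

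The members were spread unevenly over the libraries. Cochlea replicates 1, 3, 4 and 5 held 11, 125, 3 and 5 members, and vestibule replicates 1, 3, 4 and 5 held 4, 135, 68 and 129. The 2 libraries of replicate 3 thus supplied 260 of the 480 (54.2%), and cochlea replicate 4 and vestibule replicate 1 too few to describe by themselves. The members of the libraries summed to 21879, 306757, 9917 and 35889 UMIs in the cochlea and to 16456, 686078, 234306 and 647750 UMIs in the vestibule, in the same order. A member had a median of 3003.5 UMIs (range 1000 to 40343) and 841 genes. Cochlea replicate 3 had the lowest median depth and stood apart from the other libraries in mitochondrial content. Its members had a median of 1541 UMIs and 7.21% mitochondrial UMIs, while the medians of the other 7 libraries were 1967 to 3759 UMIs and 0.514% to 2.75%. Means over the libraries that moved by over 1.5 times without that library are given without it too, where they are named.

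S100a8 and S100a9 made up 21.3% to 36.9% of all UMIs of the members in the 8 libraries. A member had a median of 445.5 UMIs of S100a8 and 561.5 of S100a9, against the 2 UMIs required. In the same cells, thinned to 1000 UMIs each, S100a8 was detected in 99.6% of members, in 2.86% of 664 macrophage-like cells, in 2.72% of 367 B-cell-like cells, in 2.79% of 358 T/NK-like cells and in 1.19% of 2180 hair-cell-like cells. The library medians of the depth before thinning were 1541 to 3759 UMIs for members, 2389 to 4158.5 for macrophage-like cells and 3640 to 12261 for hair-cell-like cells. Members held 95.5% to 99.8% of the S100a8 UMIs of all kept cells of a library. These values describe the choice and were not tested.

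The cells near the limits of the choice were counted. Of 539 kept cells with at least 2 UMIs of both S100 genes, 50 lacked a second granulocyte gene and 9 had 3 or more macrophage genes. Of the 50, 34 were in cochlea replicate 3. Only 1 of the 6 second genes had a UMI in 58 members, 44 of them in cochlea replicate 3. There were 36 members with under 10 UMIs of S100a8 or S100a9, 25 of them in cochlea replicate 3, and 5 members had exactly 2 UMIs of a gene. Another 22 cells missed the limit with 1 UMI of a gene, 11 of them in vestibule replicate 3 and 9 in cochlea replicate 3. Lowering the depth limit to 500 UMIs would have added 74 cells, 45 of them in cochlea replicate 3 and 11 in cochlea replicate 1, which had 11 members.

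The label was checked against markers of other cells. Of 5 eosinophil genes Epx and Ccr3 were at 0 UMIs in all members, Siglecf had 7 UMIs, Prg2 had 3 and Prg3 had 1, and their sum was at most 16.3 CPM. Of the mast cell and basophil genes Cpa3, Mcpt8 and Fcer1a were at 0. Of 5 progenitor genes Cd34 and Flt3 were at 0, while Kit had a UMI in 8.75% of members and Myb in 8.33%, and 16 members (3.33%) had at least 2 of the 5. The 5 monocyte genes summed to 167 to 1234 CPM in members and to 22.3 to 155 CPM in the other kept cells. Ly6c2, a surface protein gene of myeloid cells, carried this sum at 397 ± 381 CPM in members and a mean of 7.52 CPM in the other kept cells. The other 4 were lower in members than in the other kept cells: Ccr2 at 2.36 against 14.1 CPM, F13a1 at 2.94 against 22.6 CPM, Fn1 at 19.6 against 58.4 CPM and Ms4a4c at 0.986 against 3.44 CPM. Only 5 members (1.04%) had UMIs of at least 2 of the 5. Of the macrophage panel, limited by the choice, Cx3cr1 was at 0. The summed level of the 5 macrophage genes was 0 to 60.8 CPM (UMIs of a gene per 1000000 UMIs) in members and 172 to 765 CPM in the other kept cells. Haemoglobin was present: 91 members (19.0%) had UMIs of at least 2 of 5 erythroid genes. The most abundant of them, Hbb-bs, was at 0 to 10053 CPM in members and at 2361 to 60452 CPM in the other kept cells, higher in the latter in every library. A total of 50 members (10.4%) had UMIs of at least 2 markers of B cells, T or NK cells, hair cells, fibroblasts, endothelium, epithelium or glia, and 22 of these were in cochlea replicate 3. They were kept, as no doublet caller was run, and calls that end without them are named below.

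Cd3d, a T cell receptor subunit gene, was detected in members of all 8 libraries. In the order of replicates 1, 3, 4 and 5 its levels were 229, 143, 202 and 83.6 CPM in the cochlea, and the vestibule had 122, 224, 239 and 232 CPM. The partner genes Cd3e and Cd3g did not follow it: Cd3e was at 0 in 7 of the 8 libraries and at 16.3 CPM in cochlea replicate 3, and Cd3g reached at most 19.6 CPM. In the other kept cells Cd3d was at 2.04 to 20.3 CPM. Trbc2 and Nkg7 were the remaining markers of T or NK cells. Trbc2 had 1 UMI in all members, against a mean of 14.1 CPM in the other kept cells. Nkg7 went the other way, with a mean in members above the 6.81 CPM of the other kept cells. It had 120 UMIs in 3.54% of members, was detected in 4 of the 8 libraries and reached 114 CPM. Cd3d was singled out after its values were seen.

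The 20 leading genes were ranked by the mean log2 ratio of the members to the other kept cells, with 10 CPM added to each, among 355 genes with at least 100 CPM in the members of every library. S100a9 was at 162398 ± 34532 CPM (SD, n = 8 libraries) and S100a8 at 140783 ± 22849 CPM, against means of 49.0 and 44.2 CPM in the other kept cells. Camp, the precursor of the antimicrobial peptide cathelicidin, was at 26257 ± 8917 CPM, and Ngp, a secondary granule protein, at 18285 ± 8637 CPM. Retnlg, a resistin-like protein of myeloid cells, was at 15028 ± 8239 CPM. These 5 genes and Ly6g, a neutrophil surface protein at 1658 ± 682 CPM, entered the choice of the members.

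The other 14 leading genes were not used to choose the cells. Wfdc21 was at 5767 ± 2055 CPM against 3.09 CPM in the other kept cells. Lcn2, a protein that binds bacterial iron carriers, was at 12549 ± 4991 CPM, and Ltf, lactoferrin, at 4283 ± 2160 CPM. Mmp8, the neutrophil collagenase, was at 1165 ± 834 CPM, and Pglyrp1, which binds bacterial cell walls, at 2187 ± 637 CPM. Hp, haptoglobin, was at 1516 ± 635 CPM, Chil3, a chitinase-like granule protein, at 671 ± 512 CPM, and Il1b, the cytokine interleukin 1 beta, at 758 ± 671 CPM. Ifitm6, Lrg1, Trem3, Alox5ap, F630028O10Rik and Cd52 completed the list, with means from 355 CPM for Trem3 to 3633 CPM for Cd52. In all 20 genes the library with the lowest level in members was above the mean of the other kept cells. The genes were picked by this ratio in the same data, which favours that result, and it was not tested.

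**Figure D1:**
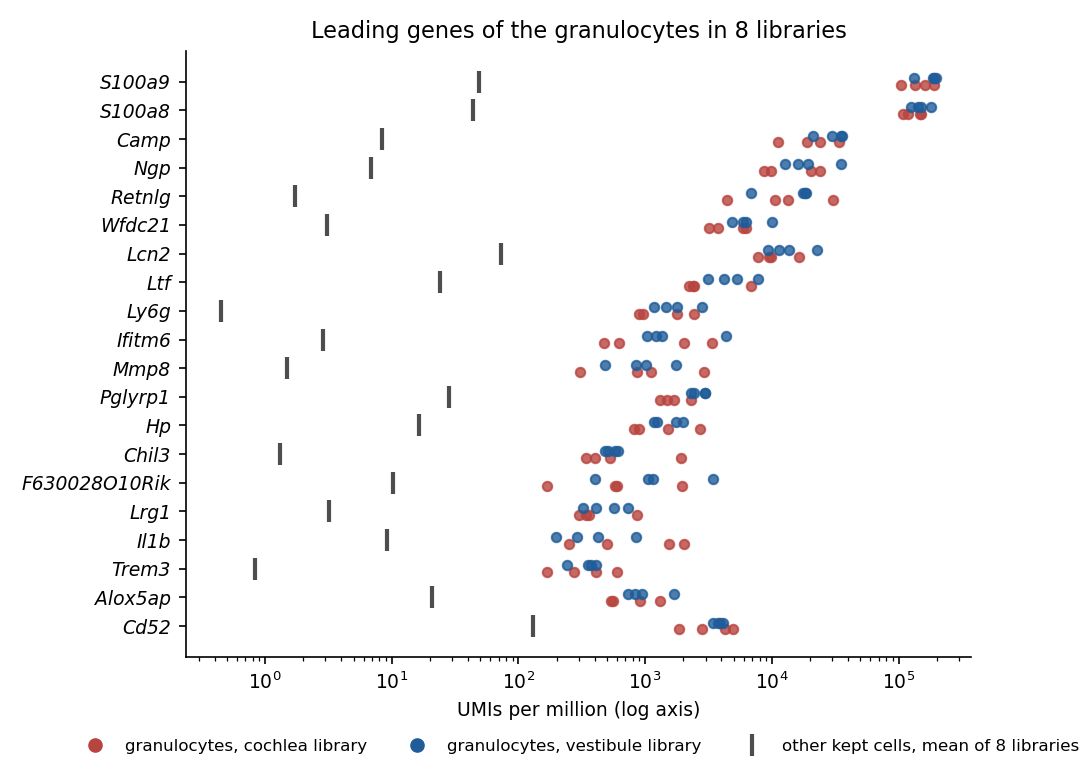
Levels of the 20 leading genes of the granulocytes in CPM, on a log axis, ordered by the ratio to the other kept cells. Each point is the members of 1 library (red, cochlea; blue, vestibule), and the grey bar is the mean of the other kept cells over 8 libraries. All points lie to the right of the bar of their gene, which the choice of genes by that ratio favoured. The points of the 2 organs overlap in every gene.

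The levels of the granule genes overlapped between the granule classes. Of the primary granule genes, Srgn, a proteoglycan that packs granule contents and is made by many blood cells, was the most abundant at 1219 ± 924 CPM. Mpo, myeloperoxidase, was the least abundant at 42.6 ± 85.6 CPM, with UMIs in 3 of the 8 libraries. Without vestibule replicate 3 Mpo was at 14.9 ± 37.7 CPM, and Ctsg, another primary granule gene, was then below it. The secondary granule genes ran from Camp down to Cd177, a surface protein stored in these granules, at 495 ± 298 CPM. The tertiary and late genes ran from Retnlg to Slpi, a protease inhibitor, at 271 ± 162 CPM. Mmp9, gelatinase B, was at 679 ± 561 CPM.

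Receptor, adhesion and oxidase genes were measured in the same cells. Cxcr2, the receptor for chemokines that draw neutrophils into tissue, was the most abundant of 8 receptor genes at 509 ± 303 CPM, and Trem1, which amplifies inflammatory signals, the least at 61.4 ± 58.6 CPM. Of 6 adhesion genes Itgam, an integrin chain used in the choice, was the most abundant at 419 ± 251 CPM and Itgal, another integrin chain, the least at 58.8 ± 29.7 CPM. Of the 6 genes of the NADPH oxidase, which makes superoxide, Cyba was the most abundant at 1964 ± 579 CPM. All 6 oxidase genes had UMIs in all 8 libraries.

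The remaining lists held regulators and response genes. Among 8 transcription factors Junb was the most abundant at 737 ± 577 CPM, and Cebpa, which acts early in the lineage, the least at 3.10 ± 4.68 CPM (1.88 ± 3.40 without vestibule replicate 3). Ifitm3 led the interferon genes at 992 ± 465 CPM, and Ifit1 was the least abundant of them at 5.69 ± 10.4 CPM (2.23 ± 3.98 without vestibule replicate 4). Cxcl2, a chemokine for neutrophils, was the most abundant of the 12 inflammatory mediators, but its mean of 1291 ± 2830 CPM rested on cochlea replicate 3. Without that library it was 295 ± 300 CPM (SD, n = 7 libraries), below the 647 ± 642 CPM of Il1b. Tnfaip3, an inhibitor of NF-kB, was the least abundant of them at 26.2 ± 44.8 CPM, and at 11.7 ± 20 CPM without that library. The rank of Tnfaip3 below Ptgs2 rested on cochlea replicate 4, where Ptgs2 was at 202 CPM and Tnfaip3 at 0. Mcl1, a survival factor, was at 735 ± 469 CPM and Bcl2a1d at 2.01 ± 4.51 CPM (0.429 ± 0.733 without cochlea replicate 3). Fth1, the ferritin heavy chain, was at 7164 ± 7646 CPM, and at 4561 ± 2224 CPM without cochlea replicate 3. Tfrc, the transferrin receptor, was at 4.86 ± 7.60 CPM (2.76 ± 5.12 without it). Hmgb2, a chromatin protein, was at 2005 ± 289 CPM, and Cdk1, the mitotic kinase, at 29.7 ± 29.4 CPM. In the list of S100 and stefin genes, which S100a9 led, Stfa3 was the least abundant at 2.22 ± 4.69 CPM (0.662 ± 1.75 without vestibule replicate 3). The stefin genes are near-identical neighbours and their counts are uncertain.

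Among the members, secondary granule genes and inflammatory mediators were largely found in different cells. Each cell was thinned to 1000 UMIs, which left out 0 members, so that depth did not set the count of detected genes. At least 3 of the 6 secondary granule genes were detected in 225 members (46.9%) and at least 3 of the 12 inflammatory mediators in 120 (25%), while 1 member had both and 136 (28.3%) had neither. The limit for the mediators was set after the values were seen, and Camp and Ngp entered the choice of cells, so the split into subsets was described and not tested. Only the share with secondary granule genes was compared between the organs, below. Without thinning the shares were 52.5% and 38.3%. Without both libraries of replicate 3 the numbers were 133 and 24 of 220 members, with 0 having both. Among the 444 members with at least 10 UMIs of both S100 genes they were 221 and 91, again with 0 having both. Cells with mediators thus fell from 120 to 91, and those with secondary granule genes from 225 to 221. More of the cells with mediators lay near the S100 limit of the choice.

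**Figure D2:**
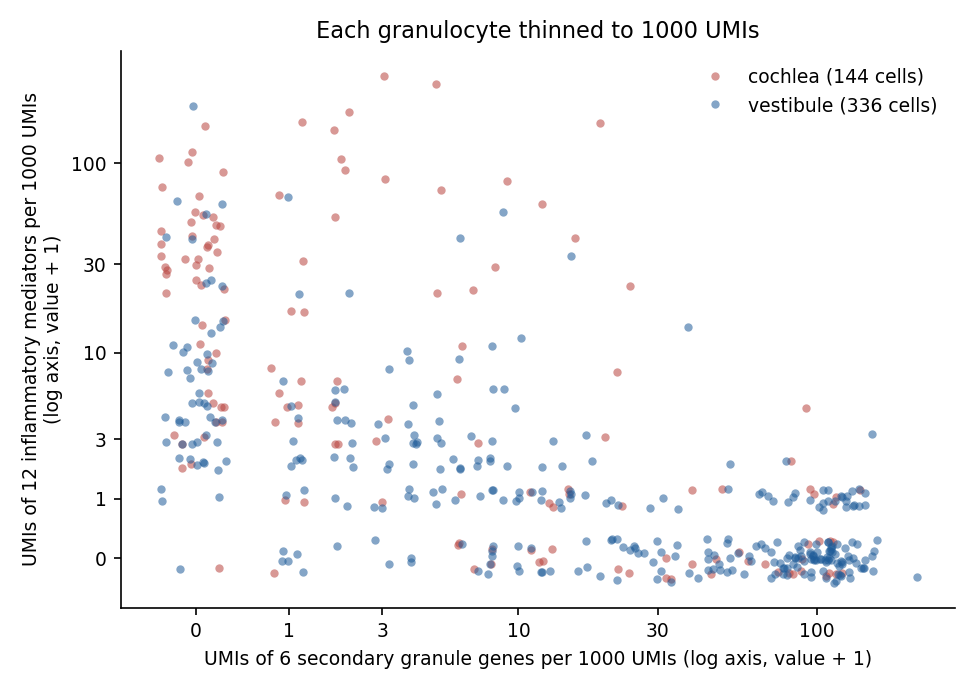
UMIs of the 6 secondary granule genes (x axis) against UMIs of the 12 inflammatory mediators (y axis) in each of the 480 granulocytes after thinning to 1000 UMIs, on log axes of the value + 1 with small random shifts so that cells do not hide each other. Each point is a cell (red, cochlea; blue, vestibule), and few cells lie in the upper right: 1 cell had at least 3 genes of both lists.

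The subset with secondary granule genes alone, 224 cells, had a median of 4591 UMIs per cell, against 1444 in the 119 cells with mediators alone and 2543.5 in the 136 with neither. Within cochlea replicate 3 the medians were 3250.5, 1289.5 and 1659 UMIs, with median mitochondrial shares of 2.89%, 10.4% and 5.85%. Within vestibule replicate 5 they were 5210, 1729 and 2740 UMIs, with 0.661%, 1.05% and 1.19% mitochondrial UMIs. Depth and mitochondrial share thus moved with the subsets, and their part in the differences was not tested.

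Genes that did not define the subsets differed between them too. Fth1 was at 44740 CPM in the cells with mediators, 5908 CPM in those with neither and 1554 CPM in those with secondary granule genes. Cochlea replicate 3 held 66 of the 119 cells with mediators alone and had the highest Fth1 in them, so the pooled level rested largely on it. This order held in each of the 4 libraries with at least 5 cells in every subset: Fth1 was at 68005, 10023 and 2435 CPM in cochlea replicate 3, at 29211, 5874 and 1374 CPM in vestibule replicate 3, at 10431, 5218 and 1529 CPM in vestibule replicate 4, and at 21069, 4081 and 1370 CPM in vestibule replicate 5. Ftl1, the ferritin light chain, was at 17987, 3292 and 1493 CPM over all libraries. Cebpb, a factor of emergency granulopoiesis and inflammation, was at 3073, 322 and 99.8 CPM, and Cebpe, the factor required for secondary granules, ran the other way at 4.58, 80.0 and 325 CPM. The survival gene Mcl1 was at 1878, 573 and 187 CPM.

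Levels of receptor genes differed between the subsets as well. A cell without Camp and Ngp could be chosen through Ly6g, Itgam, Retnlg or Csf3r alone, so the levels of these genes outside the secondary granule subset were partly set by the choice. Csf3r, the receptor for granulocyte colony-stimulating factor, was at 875 CPM in the cells with mediators, 431 CPM in those with neither and 94.2 CPM in those with secondary granule genes. Cxcr2 was at 696, 669 and 228 CPM, but the order of the first pair differed between libraries. With mediators against neither, Cxcr2 was at 285 against 675 CPM in cochlea replicate 3, and at 724 against 523, 1811 against 754 and 1423 against 867 CPM in vestibule replicates 3, 4 and 5. Cybb, the catalytic chain of the oxidase, was highest with secondary granule genes, at 124, 218 and 1235 CPM.

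Retnlg, one of the genes of the choice, was at 31559 CPM in the cells with neither list, 11020 CPM in the cells with mediators and 12339 CPM in those with secondary granule genes. Retnlg was highest in the cells with neither in all 4 libraries, from 22202 CPM in cochlea replicate 3 to 41672 CPM in vestibule replicate 4. The order of the other subsets differed between libraries: with mediators against secondary granule genes, Retnlg was at 4073 against 15617 CPM in cochlea replicate 3 and 10286 against 14425 CPM in vestibule replicate 3, but at 33394 against 10184 CPM and 24863 against 11432 CPM in vestibule replicates 4 and 5. Ifitm1, an interferon-inducible membrane protein, was at 1876 CPM in these cells, against 783 and 17.6 CPM, and this rested on vestibule replicate 3. In cochlea replicate 3 and vestibule replicates 3, 4 and 5, Ifitm1 was at 1086, 3370, 565 and 313 CPM in the cells with neither and at 886, 712, 362 and 948 CPM in those with mediators. S100a6 was at 8849 CPM, against 5780 and 3896 CPM, while in vestibule replicate 4 it was at 10625 CPM with neither and 10866 CPM with mediators. S100a8, which chose the cells, fell between the others at 99187 CPM, against 50800 CPM with mediators and 167464 CPM with secondary granule genes.

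**Figure D3:**
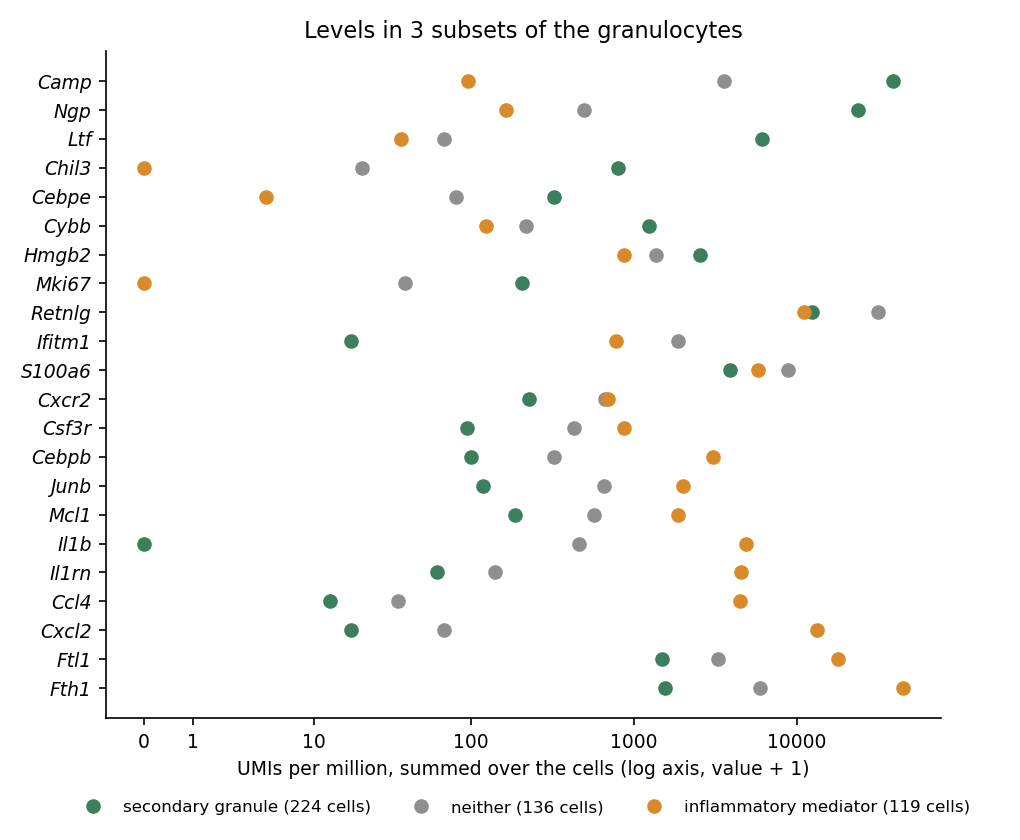
Levels of genes in 3 subsets of the granulocytes, in CPM summed over the cells of all 8 libraries, on a log axis of the value + 1. Green is the 224 cells with at least 3 secondary granule genes, orange the 119 with at least 3 inflammatory mediators and grey the 136 with neither, all at 1000 UMIs per cell. Fth1 runs from 1554 in green to 44740 in orange, and Retnlg is highest in grey at 31559. Of the 119 orange cells, 66 are from cochlea replicate 3.

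Cells with cell cycle genes were few and lay within the secondary granule subset. At 1000 UMIs, 19 members (3.96%) had at least 3 of 9 cell cycle genes, all 19 of them in the subset with secondary granule genes and 0 in that with mediators. They were 4 of 144 in the cochlea and 15 of 336 in the vestibule. Their median depth was 10798 UMIs. Hmgb2 was at 5336 CPM in them, Camp at 49451 CPM and Retnlg at 4.83 CPM. Without thinning, 44 members had at least 3 of the 9.

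Primary granule genes were held by fewer cells still. At least 2 of Mpo, Elane, Prtn3, Ctsg and Ms4a3 were detected at 1000 UMIs in 7 members, all of the vestibule: 3 in replicate 3, 1 in replicate 4 and 3 in replicate 5. The median depth of these 7 was 10793 UMIs. Elane, neutrophil elastase, was at 11884 CPM in them and Prtn3, proteinase 3, at 9978 CPM. Mmp8 and Mmp9 were at 0 in these cells. Without thinning, 16 members had at least 2 of the genes, of which cochlea replicates 3 and 5 held 1 each. In the cochlea 0 of 144 members is a count that allows a share of up to 2.08%, and the vestibule had 2.08%. These are cells pooled over libraries, 125 of the 144 from cochlea replicate 3, and the organs were not compared on them. These limits and intervals cover counting error only.

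The stretches before the start of the genes that marked the subsets are shown because the factors named above bind known motifs. The 250 bases upstream of the start were read from RefSeq promoters on GRCm38.p6, 5' to 3' on the strand of the gene, with matches in capitals. For the C/EBP family the motif searched was TTGCNNAA on either strand. It was found in 3 of the 6 secondary granule genes (Ltf, Ngp and Lcn2), in 0 of 6 primary granule genes, in 1 of 10 inflammatory mediators with an entry (Ptgs2), and in 10.8% of 27025 genes with a promoter entry. Ngp lies at chr9:110419558-110419807 (plus strand), Ltf at chr9:111019042-111019291 (plus strand) and Lcn2 at chr2:32387740-32387989 (minus strand).
Ngp: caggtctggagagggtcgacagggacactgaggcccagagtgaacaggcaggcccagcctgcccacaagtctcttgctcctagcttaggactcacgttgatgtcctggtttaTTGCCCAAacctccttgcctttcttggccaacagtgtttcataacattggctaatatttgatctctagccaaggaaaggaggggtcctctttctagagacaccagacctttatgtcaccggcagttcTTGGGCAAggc
Ltf: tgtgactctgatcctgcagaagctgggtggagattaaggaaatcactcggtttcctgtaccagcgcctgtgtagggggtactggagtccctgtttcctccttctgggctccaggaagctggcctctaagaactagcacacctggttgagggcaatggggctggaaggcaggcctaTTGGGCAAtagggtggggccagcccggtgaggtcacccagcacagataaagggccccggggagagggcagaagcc
Lcn2: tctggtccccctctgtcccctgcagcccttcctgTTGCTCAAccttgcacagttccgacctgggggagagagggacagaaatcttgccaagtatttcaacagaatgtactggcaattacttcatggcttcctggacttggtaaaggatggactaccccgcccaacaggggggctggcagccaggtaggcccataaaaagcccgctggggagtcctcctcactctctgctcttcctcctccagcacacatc

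For NF-kB the motif searched was GGG, any 3 bases and TTCC, on either strand. It was found in 4 of the 10 inflammatory mediators with an entry (Il1rn, Cxcl2, Nfkbia and Tnfaip3), in 0 of the 6 secondary granule genes, and in 5.31% of all genes. Osm and Ccl4 had no entry. Cxcl2, at chr5:90903649-90903898 (plus strand), held 2 stretches, of which the first matched on both strands 1 base apart.
Cxcl2: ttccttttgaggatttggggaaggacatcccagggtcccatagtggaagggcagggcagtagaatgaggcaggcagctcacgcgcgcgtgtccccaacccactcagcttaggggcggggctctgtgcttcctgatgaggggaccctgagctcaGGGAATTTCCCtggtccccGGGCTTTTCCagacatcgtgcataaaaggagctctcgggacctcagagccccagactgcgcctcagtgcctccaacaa
A match is a run of letters and was not tested as a binding site.

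The cochlea and the vestibule were then compared to ask whether the number and kind of granulocytes differed between the organs. In the order of replicates 1, 3, 4 and 5, members were 1.93%, 2.47%, 0.432% and 0.534% of the kept cells of the cochlea, and 0.461%, 2.48%, 2.78% and 7.72% of those of the vestibule. The 95% exact binomial intervals ran from 0.0891% to 1.26% in cochlea replicate 4, the lowest, and from 6.49% to 9.11% in vestibule replicate 5, the highest. Vestibule replicate 5 was above all other libraries, and the groups overlapped. The means were 1.34% ± 1.01 in the cochlea and 3.36% ± 3.08 in the vestibule (SD, n = 4 libraries each), and the difference did not pass a two-sided exact permutation test (p = 0.200, adjusted p = 0.267 over the 4 measures compared). The smallest p that 4 against 4 libraries can give is 0.0286. Without vestibule replicate 5 the difference shrank from -2.02 to -0.568 percentage points, and without vestibule replicate 1, which had 4 members, it was -2.99 with an exact p of 0.0286.

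Set against macrophage-like cells of the same library, granulocytes numbered 0.550, 0.373, 0.120 and 0.172 per macrophage-like cell in the cochlea and 0.364, 1.00, 1.13 and 2.63 in the vestibule, again in the order 1, 3, 4 and 5. Vestibule replicate 1, with 4 members and 11 macrophage-like cells, lay within the range of the cochlea, and the other 3 vestibular libraries were above it. On the log2 scale the difference was -2.0 (cochlea minus vestibule), which did not pass the test (exact permutation p = 0.0857, adjusted p = 0.229, n = 4 against 4).

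**Figure D4:**
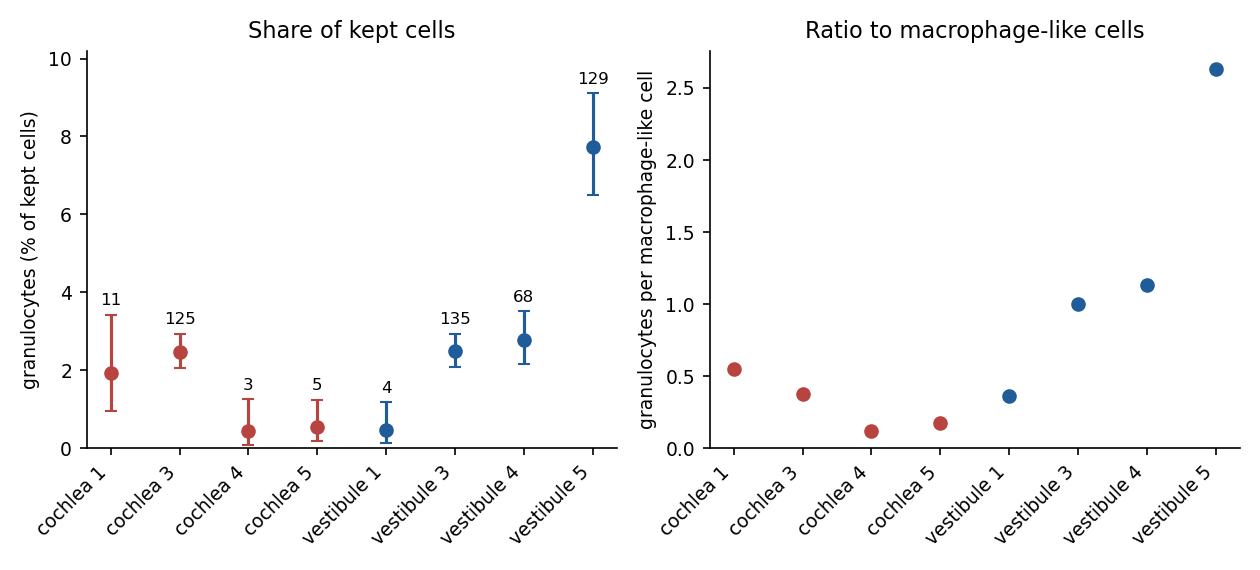
Left, granulocytes as a percentage of kept cells in each library, with 95% exact binomial intervals and the number of granulocytes above each point; right, granulocytes per macrophage-like cell. Red is cochlea and blue vestibule; vestibule replicate 5 is the highest in both panels, at 7.72% and 2.63, and vestibule replicate 1 lies among the cochlear libraries.

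The median depth of a member was 1967, 1541, 3697 and 2344 UMIs in the cochlea and 3436.5, 3572, 3391.5 and 3759 UMIs in the vestibule. The cochlea was lower by 0.64 on the log2 scale on average, and this did not pass the test either (exact permutation p = 0.114, adjusted p = 0.229, n = 4 against 4). Without cochlea replicate 4, which had 3 members, it was lower by 0.88 with p = 0.0286, the smallest that permutations can give. Among members with at least 10 UMIs of both S100 genes the cochlea was lower by 0.28 (exact permutation p = 0.486).

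The share of members with at least 3 secondary granule genes at 1000 UMIs was 81.8%, 26.4%, 33.3% and 60.0% in the cochlea and 50.0%, 43.7%, 58.8% and 60.5% in the vestibule. Cochlear libraries were both the highest and the lowest. The means were 50.4% ± 25.5 and 53.2% ± 7.85, with an exact permutation p = 0.829 (adjusted p = 0.829, n = 4 libraries each), and the sign of the difference changed when cochlea replicate 3 was left out (5.14 percentage points) or cochlea replicate 4 (2.82). Camp and Ngp, counted in this share, entered the choice of cells. With at least 2 of Ltf, Chil3, Lcn2 and Cd177, which did not, the difference was -5.83 percentage points (exact permutation p = 0.686). The share with at least 3 mediators was 18.2%, 53.6%, 33.3% and 40.0% in the cochlea and 50.0%, 21.5%, 13.2% and 6.20% in the vestibule. It was not tested, since its limit was set on these values. Cochlea replicate 3 alone held 67 of the 120 such cells.

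**Figure D5:**
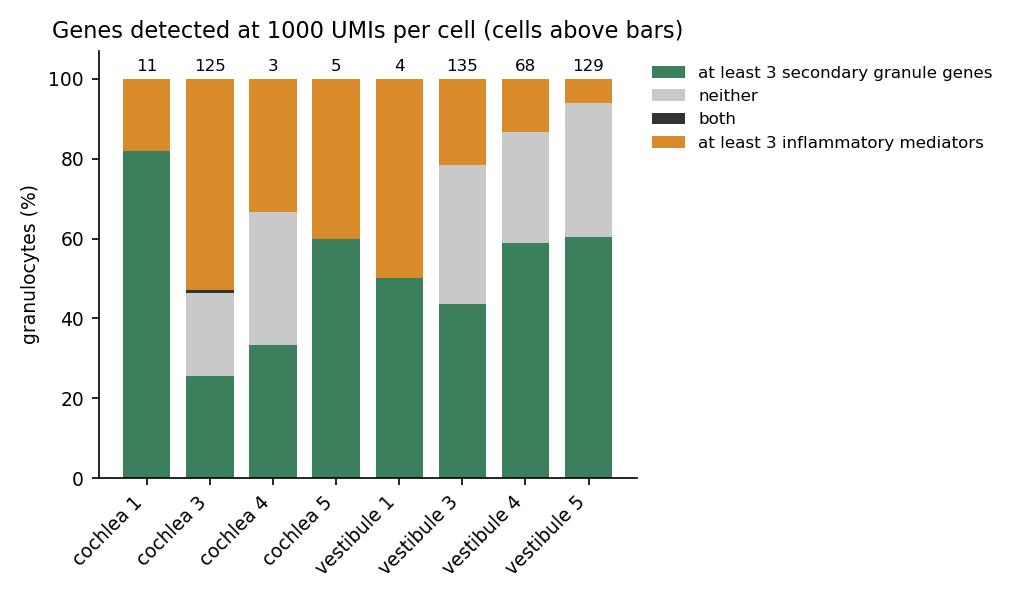
Share of the granulocytes of each library with at least 3 of 6 secondary granule genes (green), at least 3 of 12 inflammatory mediators (orange), both (black) or neither (grey) after thinning to 1000 UMIs, with the number of granulocytes above each bar. In cochlea replicate 3 the cells with mediators were 53.6%, the 1 cell with both included, and in vestibule replicates 3, 4 and 5 they were 21.5%, 13.2% and 6.20%.

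Of the 12 mediator genes, 7 were highest in cochlea replicate 3 and 5 in cochlea replicate 4, which had 3 members. Il1b was among the latter, at 2017 CPM against 1532 CPM in cochlea replicate 3. Cxcl2 was at 731, 8261, 504 and 0 CPM in cochlea replicates 1, 3, 4 and 5 and at 60.8, 577, 158 and 35.5 CPM in the vestibule. A few cells set a level in the small libraries: in vestibule replicate 2, which repeats replicate 1 with 1 member more, Cxcl2 was at 7075 CPM. Il1rn, the interleukin 1 receptor antagonist, was at 137, 2676, 101 and 362 CPM in the cochlea and at 60.8, 328, 98.2 and 110 CPM in the vestibule. Ccl4, a chemokine, was at 229, 2393, 0 and 223 CPM and at 122, 379, 0 and 17.0 CPM. Fth1 was at 8364, 25388, 3832 and 5656 CPM in the cochlea and at 2674, 6117, 2889 and 2393 CPM in the vestibule. In cochlea replicate 3 the macrophage-like cells, 335 in number, did not share these levels of Cxcl2, Il1rn and Ccl4, which were at 52.3, 46.2 and 110 CPM in them. Fth1 was at 15995 CPM in those cells. In each of the other 7 libraries Fth1 was higher in macrophage-like cells than in granulocytes, as at 14763 against 6117 CPM in vestibule replicate 3. The granulocytes of cochlea replicate 3 also had the highest mitochondrial share, and the part of this in the result was not tested.

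For a test across all genes the UMIs of members were summed per library, in libraries with at least 5 members: cochlea replicates 1, 3 and 5 against vestibule replicates 3, 4 and 5. Of 2670 genes tested with edgeR's quasi-likelihood test, 5 (0.187%) passed a Benjamini-Hochberg adjusted p of 0.05, 4 higher in the cochlea and 1 in the vestibule, and 219 had an unadjusted p below 0.05. Libraries of the organs did not overlap in 326 genes (12.2%). The 69 genes tested from the 13 lists, without those of the choice, held 1 call, and 9 of the 69 (13%) did not overlap. The number of calls was 0 without cochlea replicate 3, cochlea replicate 5 or vestibule replicate 5, and 27 without vestibule replicate 3.

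The call that was higher in members than in other cells was Elane (chromosome 10, 79886247 to 79888215, GRCm38), higher in the vestibule. Elane was at 0 UMIs in all 4 cochlear libraries, and at 0, 1098, 171 and 401 CPM in vestibule replicates 1, 3, 4 and 5. Over all vestibular members it had 1053 of 1584590 UMIs (665 CPM, and 334 CPM without vestibule replicate 3), against 0 of 374442 in the cochlea, and edgeR's adjusted p was 0.0301. No fold is given, since the cochlear count was 0 and these UMIs sat in few cells. Elane was detected in 7, 2 and 5 members of vestibule replicates 3, 4 and 5, and the highest cell held 660 of the 753 UMIs in replicate 3 (87.6%), 39 of 40 in replicate 4 and 136 of 260 in replicate 5. After thinning to 1000 UMIs, 8 of 336 vestibular members had a UMI of Elane (2.38%, and 4.17% without thinning) and 0 of 144 cochlear ones, which allows up to 2.08%. These are cells pooled over libraries, and were not tested. In the other kept cells Elane averaged 3.67 CPM in the cochlea and 22.0 CPM in the vestibule, so this call too had the sign of the surrounding cells. Without cochlea replicate 3, which held most cochlear members, the adjusted p was 0.473, and it was 0.137 without cochlea replicate 5 and 0.129 without vestibule replicate 5. It was 0.155 without the 50 mixed members, where cochlea replicate 5 also left the fit with 4 members, and 0.0716 with replicate 2 in place of replicate 1, where vestibule replicate 2 entered it with 5.

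Prtn3, the neighbour of Elane on chromosome 10 (79874476 to 79883174), was at 0, 6.52, 0 and 27.9 CPM in the cochlea and at 0, 794, 64.0 and 496 CPM in the vestibule. In the other kept cells it averaged 9.48 CPM in the cochlea and 39.6 CPM in the vestibule. It did not pass the test (edgeR adjusted p = 0.0805). Its UMIs, too, sat in few cells: the highest cell held 459 of the 545 UMIs in vestibule replicate 3, 12 of 15 in replicate 4 and 166 of 321 in replicate 5. Mpo was at 0 in all cochlear libraries and at 0, 236, 4.27 and 100 CPM in the vestibule, where 1 cell held 154 of the 162 UMIs in replicate 3. Of the 4 primary granule genes tested, 3 were higher in the vestibule, which is no support for a difference of the list. Elane and Prtn3, with 0 and 3 UMIs in the cochlea, passed the filter on low counts only through the vestibule. Mpo and Ctsg did not pass it. The median log2 difference of the 4 genes was -3.88 against -0.05 over all genes tested, midway between the values of Prtn3 and Ms4a3.

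The 4 genes called higher in the cochlea were Nr2f1, Nat8l, Ebf1 and Plpp3, and all 4 were higher in the other kept cells than in the members. Nr2f1, a nuclear receptor, was at 91.4, 81.5 and 55.7 CPM in cochlea replicates 1, 3 and 5 and at 0, 12.8 and 1.54 CPM in vestibule replicates 3, 4 and 5, and in the other kept cells it averaged 637 CPM in the cochlea and 37.0 CPM in the vestibule. Nat8l, an enzyme of N-acetylaspartate synthesis, was at 45.7, 52.2 and 55.7 CPM against 1.46, 4.27 and 4.63 CPM, and at 203 and 1.78 CPM in the other kept cells. Ebf1, a transcription factor, was at 137, 166 and 195 CPM against 30.6, 25.6 and 20.1 CPM, and at 744 and 397 CPM in the other kept cells. Plpp3, a lipid phosphatase, was at 91.4, 84.8 and 111 CPM against 16.0, 12.8 and 12.4 CPM, and at 477 and 166 CPM in the other kept cells. Their log2 differences ran from 2.56 for Plpp3 to 4.59 for Nr2f1, each with an edgeR adjusted p of 0.0301. The members of cochlea replicates 1 and 5 summed to 21879 and 35889 UMIs over all genes, so a few UMIs made up each level there. With a replicate block in the edgeR fit these 4 calls ended, at adjusted p from 0.0624 for Nr2f1 to 0.999 for Nat8l. Only replicates 3 and 5 occur in both organs of that fit, too few to judge a call by. The members' organ difference in these genes thus had the sign of that in the surrounding cells, and the part of free RNA in it was not tested. Without the mixed members, and so without cochlea replicate 5, 0 of the 5 calls remained. Plpp3 had a log2 difference of 2.67, as large as before, at an adjusted p of 0.155, and Ebf1, Nat8l and Nr2f1 no longer passed the filter on low counts. Leaving out cochlea replicate 5 alone also gave 0 calls. With the genes higher in other cells left out, 0 of 1221 genes were called (132 at an unadjusted p below 0.05), and the adjusted p of Elane was 0.0828.

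The other lists held 0 calls, beside the 0.187% over all genes tested. Directions in this paragraph are the sign of edgeR's log2 difference, which was below 0 in 1412 of all 2670 genes tested (median -0.05). Of 8 inflammatory mediators tested, 6 were higher in the cochlea, with a median log2 difference of 1.17. Cxcl2 had a log2 difference of 3.55 ± 1.39 (SE) with an edgeR adjusted p of 0.499, its libraries overlapping. All 4 iron and haem genes tested were higher in the cochlea, with a median of 0.99. Of the 4 secondary granule genes outside the choice, the log2 difference was above 0 in 1 and below 0 in 3, with a median of -0.25. Cd177, 1 of the 3, had the higher library mean in the cochlea, at 533 against 484 CPM. All 6 oxidase genes and all 5 adhesion genes tested had log2 differences below 0, with medians of -0.55 and -0.38, as had the 5 S100 and stefin genes with a median of -0.94. By the means of the fitted libraries, however, Ncf1, Ncf4, Itgb2, Itgb2l and Selplg were higher in the cochlea, as in Ncf1 at 494 against 412 CPM. All 3 survival genes tested were above 0, with a median of 0.64, and the lists not named here held both signs. S100a6, S100a11, Cyba, Pglyrp1, Cebpe, Top2a and Stfa2l1 did not overlap between the 6 libraries of the fit, each at an adjusted p above the threshold. Of these genes only Stfa2l1 did not overlap over all 8 libraries, and the share over all genes tested was not counted for 8 libraries. Stfa2l1 was at 0 in cochlea replicates 4 and 5, and the counts of stefin genes are uncertain. Cebpe was at 137, 124 and 55.7 CPM in the cochlea and at 252, 256 and 258 CPM in the vestibule in the fit, with 202 CPM in cochlea replicate 4 and 122 CPM in vestibule replicate 1. Its log2 difference was -1.33 ± 0.44 (SE), with an edgeR adjusted p of 0.388.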

How the data were processed

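Single-cell libraries (10x 3' v3.1) of the cochlea and vestibule of old CBA/J mice were analysed. The authors aligned reads to mm10 and deposited raw counts of UMIs per gene and barcode, without normalization. The paper names Cell Ranger 6.1.2, while per the file headers version 5.0.1 made replicates 1 and 2 of both organs and 6.1.2 the rest. The members and the gene lists were chosen with earlier results of these data known.

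Cells were kept at the limits of the paper (200 genes, 1000 UMIs, under 25% mitochondrial). Macrophage-like cells had a UMI in at least 3 of C1qa, C1qb, C1qc, Cx3cr1 and Csf1r, and the B-cell-like, T/NK-like and hair-cell-like cells in at least 3 of their listed markers. Levels are UMIs of a gene per 1000000 UMIs of the members of a library. Shares across depths were taken after thinning each cell to 1000 UMIs. A total of 4 measures per library were compared between organs by two-sided exact permutation of libraries with Benjamini-Hochberg adjustment. Counts summed over members were tested with edgeR 4.0.16 (TMM factors, its filter on low counts, quasi-likelihood test) in libraries with at least 5 members, 3 per organ, where 4 had been planned. DESeq2 1.42.0 was an alternative. The tests were checked on simulated data.

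Genes were named by rule: the 20 leading genes, the most and least abundant gene of each list, every gene of the choice of cells, and called genes whose libraries did not overlap, split by whether members or other cells were higher. Some genes that the rule names are not reported here. Genes shown between the subsets, and the limits of the mediator, cell cycle and primary granule subsets, were chosen after the values were seen. Positions were taken from GENCODE M21 (GRCm38), matched by gene ID for 113 of 113 genes. Nothing says that the pools of mice were independent beyond their labels as biological replicates.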

Additional observations from a re-analysis of the deposited data

Results flagged for a closer look

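Dixon's test was applied to 52 groups of 4 libraries (6 measures per library and the 20 leading genes, in each organ), and 8 had a library far from the other 3. Chance gives such a value in about 1 of 20 groups. The median mitochondrial share of the members was 7.21% in cochlea replicate 3, against 0.514% to 1.44% in the other cochlear libraries, and 2.75% in vestibule replicate 3, against 0.659% to 0.898% in the other vestibular libraries. S100a9, which entered the choice of cells, was at 132128 CPM in vestibule replicate 3, against 187713 to 196738 CPM. Both replicate 3 libraries were thus apart in their organ in mitochondrial share, and they hold 260 of the 480 cells.

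Vestibule replicate 1, with 4 members, was low in Retnlg, a gene of the choice, at 6806 CPM against 17484 to 18685 CPM. That library was high in Ifitm6, at 4315 CPM against 1041 to 1370 CPM. Cochlea replicate 1, with 11 members, was high in the granule genes Ltf, at 6856 CPM against 2201 to 2420 CPM, and Chil3, at 1920 CPM against 339 to 529 CPM. Lrg1 was also high there, at 868 CPM against 303 to 362 CPM. In these small libraries a few cells make up each level.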

How the results depend on the processing

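The number of genes called between the organs moved with most settings. It was 5 with size factors by RLE, all shared with the 5 above, and 5 with replicate 2 in place of replicate 1, of which 4 were shared and Elane was not among them; vestibule replicate 2, with 5 members, entered that fit. It was 13 with DESeq2, 186 of 15463 without a filter on low counts, 35 at 500 UMIs, 51 with at least 20 members per library (cochlea replicate 3 alone against 3 vestibular libraries, assumed to vary like them), 1 without members with 2 markers of another class, a gene not among the 5, 0 without genes higher in the other cells and 0 with 10 UMIs of both S100 genes. The last had 267 genes at an unadjusted p below 0.05 and, as in the setting without the 50 mixed members, lost cochlea replicate 5. Leaving out a library gave 0 to 27 calls: 0 without cochlea replicate 3, cochlea replicate 5 or vestibule replicate 5 (239, 349 and 147 at an unadjusted p below 0.05), 14 without cochlea replicate 1, 27 without vestibule replicate 3 and 12 without vestibule replicate 4. Without both libraries of replicate 3, a setting added after seeing the data, 1 gene was called. Elane kept its call in 8 of 17 alternatives, the replicate block described below among them, with adjusted p from 3.92e-12 to 0.473. Its cochlear count is 0, so that its direction could not change.

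The difference in the share of kept cells ranged from -2.99 to -0.568 percentage points when a library was left out, passing at an exact p of 0.0286 without vestibule replicate 1 alone, and it was -0.757 at 500 UMIs. That in the log2 ratio to macrophage-like cells ranged from -2.50 to -1.54 with a library left out, was -2.15 with replicate 2 in place of replicate 1, at an exact p of 0.0286, and missed the threshold in the other alternatives. That in the log2 median depth ranged from -0.88 to -0.46 with a library left out, passing without cochlea replicate 4 alone, and it was -0.28 (exact p = 0.486) with 10 UMIs of both S100 genes. The difference in the share with secondary granule genes ranged from -13.3 to 5.14 percentage points with a library left out, and it turned to 6.11 with 10 UMIs of both S100 genes, 4.19 with replicate 2 in place of replicate 1, and, in settings added after seeing the data, 1.74 in libraries with at least 5 members and 1.95 without both libraries of replicate 3. The cause was not tested.

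Replicate numbers are shared by the organs, but no source says that a number marks the same mice. In the genes tested, same-numbered libraries correlated at 0.172 (replicate 3) and -0.194 (replicate 5), and only 2 numbers occur in both organs of that fit. With a replicate block 8 genes were called, of which Elane alone was among the 5 above. The adjusted p of Plpp3, Ebf1, Nat8l and Nr2f1 was then 0.472, 0.128, 0.999 and 0.0624. With so few shared numbers that fit cannot tell whether a call holds, that of Elane included. The block left the differences in share, ratio, depth and secondary granule share at -2.02, -2.0, -0.64 and -2.86, with exact sign-flip p of 0.375, 0.250, 0.250 and 0.875, where 4 pairs cannot go below 0.125. Cochlea replicates 1, 4 and 5 hold 19 members in all and vestibule replicate 1 holds 4, which limits the comparison.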
